A study of Mus musculus with 4 samples.

Results

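Toll-like receptors 1 to 9 and the lipopolysaccharide co-receptor Cd14 were followed in 4 cultures of cells grown from BALB/C mouse bone marrow. These 10 genes were taken from the 19806 genes named on a one-colour Agilent array by matching the gene name of every non-control probe, which gave 12 probes and 30 spots per array. The first group, anti-IL-10 sDCs, consisted of stroma-derived cells (sDCs) made in the presence of a neutralizing antibody against the cytokine IL-10, given at 10 µg/mL every 2 days. The second group, sDCs, grew from progenitors depleted of lineage-positive cells on a monolayer of Sca-1+CD117-Lin- mesenchymal stem cells (MSCs). These cultures received lipopolysaccharide (LPS), a bacterial cell wall product, on day 4 at a dose the labels do not give, and sDCs had formed by day 9. The third group, mature dendritic cells (maDCs), were immature cells kept for a further 4 to 5 days with LPS at 10 ng/mL. The fourth group, immature dendritic cells (imDCs), were loosely adherent clusters taken on day 4 from marrow grown with 10 ng/mL of the growth factor GM-CSF plus 5 ng/mL of the cytokine IL-4, and were selected with beads against CD11c. The maDCs shared that GM-CSF and IL-4 culture and that selection. The labels call the sDCs purified without saying how the MSCs were removed. Each group was measured on 1 array, so there are no replicates, no test between cultures is possible, and genes were counted where they differed by 2-fold or more (1 on the log2 scale).

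Toll-like receptors (TLRs) are membrane proteins of myeloid and other cells that recognise microbial products and signal through adaptor proteins to NF-kB and interferon regulatory factors. Tlr1, Tlr2, Tlr4, Tlr5 and Tlr6 act mainly at the cell surface on bacterial lipids, lipoproteins and flagellin, whereas Tlr3, Tlr7, Tlr8 and Tlr9 sit in endosomes and bind nucleic acids. Cd14 is a surface and soluble protein that passes LPS to the complex of Tlr4 and Ly96 (MD-2), and dendritic cells use these receptors to sense infection and mature.

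The signal of a gene is given as log2 intensity relative to the 75th percentile of its own array, so 0 is the signal of a fairly bright spot, and levels of different genes are not compared. In 9 of the 10 genes both sDC arrays had a higher signal than both the maDC and the imDC array, and Tlr2 was the exception. The signal was lowest on the imDC array in 7 genes and on the maDC array in 2 (Tlr5 and Tlr8). Tlr5 was not well above background on the maDC array. For these counts of array order no share over all genes was computed. The sDC arrays were also close to each other over all genes, with a median absolute difference of 0.11. In sDCs against imDCs, 7 of the 10 genes were at least 2-fold higher, where 25.3% of all 15044 genes with a value were, and 0 were at least 2-fold lower, where 16.1% were. In maDCs against imDCs, 3 of 10 were at least 2-fold higher (background 21.5%) and 0 were 2-fold lower (background 10.8%). In sDCs against maDCs, 4 of 10 were at least 2-fold higher (background 14.2%) and 0 were 2-fold lower (background 16.8%). In anti-IL-10 sDCs against sDCs, 0 of 10 differed by 2-fold either way, with backgrounds of 0.857% higher and 1.25% lower.

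**Figure D1:**
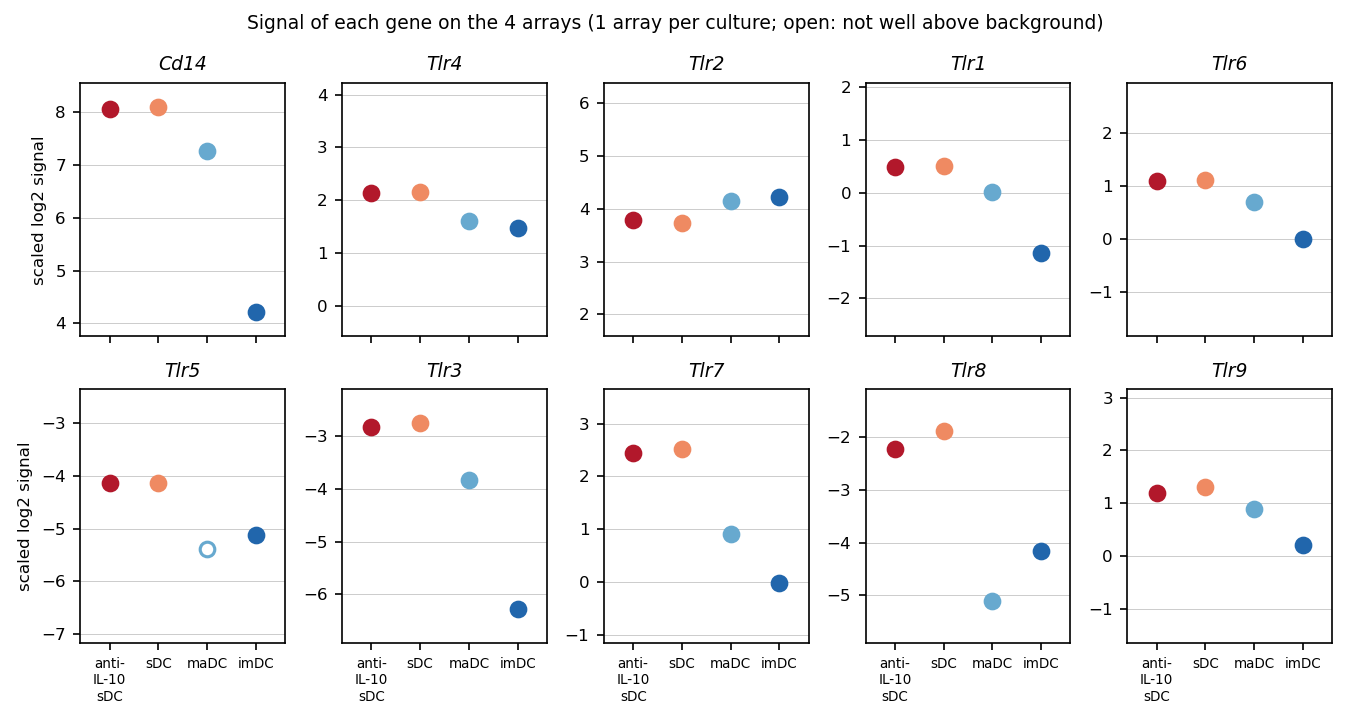
Signal of the 10 genes (log2 intensity relative to the array's 75th percentile, vertical axes of equal span) on the anti-IL-10 sDC, sDC, maDC and imDC arrays, 1 point per array, with open points where the gene's probe was not well above background. Both sDC arrays lie above the maDC and imDC arrays in 9 of 10 panels, and Tlr2 runs the other way within a span of 0.49.

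The median difference of the 10 genes was 1.39 in sDCs minus imDCs against 0.21 over all genes, 0.69 in maDCs minus imDCs against 0.18, 0.69 in sDCs minus maDCs against 0.03, and -0.03 in anti-IL-10 sDCs minus sDCs against -0.03. The sDC array serves in 3 of these comparisons and the imDC array in 2, so they are not independent of each other. The imDC array lay on another slide and scan than the remaining 3, so in differences from imDCs the slide cannot be told apart from the culture. The imDCs were also the only culture without LPS and the one taken earliest, on day 4. In differences from imDCs, LPS and time in culture therefore cannot be told apart either. In RNA taken from many cells together, fewer cells of a type and less RNA per cell cannot be told apart.

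The labelled cell type was checked against marker lists. All 9 dendritic cell markers were at least 2-fold lower in sDCs than in maDCs and imDCs, with a summed linear signal of 8.55 in anti-IL-10 sDCs and 9.42 in sDCs, against 409 in maDCs and 291 in imDCs. Among them, Itgax, which encodes CD11c, had a signal of -1.48 in anti-IL-10 sDCs and -1.60 in sDCs, against 3.70 in maDCs and 2.93 in imDCs, and Irf4 was not well above background on either sDC array. All 12 macrophage and monocyte markers were at least 2-fold higher in sDCs than in imDCs (summed signal 265 in anti-IL-10 sDCs and 298 in sDCs, against 146 in maDCs and 40.5 in imDCs). Of 13 stromal markers 11 were 2-fold or more above imDCs in sDCs and 1, Thy1, was below (-2.03). Their median log2 difference was 7.19 in sDCs minus imDCs and 5.90 in sDCs minus maDCs. Their summed signals, which the brightest genes dominate, were 108 in anti-IL-10 sDCs, 197 in sDCs, 102 in maDCs and 108 in imDCs. Like sums thus do not mean like stromal signals. Pdgfra was not well above background in maDCs or imDCs. Of 11 neutrophil markers 10 were 2-fold or more below imDCs in sDCs and 1, Mmp8, was above (1.04), and their summed signals were 259 in anti-IL-10 sDCs, 148 in sDCs, 112 in maDCs and 1207 in imDCs. Of 10 mast cell and basophil markers, the 8 with a value were all at least 2-fold higher in maDCs than in imDCs and all at least 2-fold lower in sDCs than in imDCs and maDCs, and their summed signals were 0.637 in anti-IL-10 sDCs, 0.406 in sDCs, 138 in maDCs and 26.7 in imDCs. Eosinophil markers summed to 0.140 in anti-IL-10 sDCs, 0.0988 in sDCs, 3.57 in maDCs and 26.6 in imDCs. Plasmacytoid dendritic cell markers summed to 39.9 in anti-IL-10 sDCs, 37.9 in sDCs, 59.5 in maDCs and 13.8 in imDCs, while B cell markers and T and NK cell markers summed to at most 4.75 and 4.13 on any array. The part of these cell types in the receptor values was not tested.

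Cd14 had the widest span over the arrays among the probes that represent the 10 genes. Its probe (mm9 chromosome 18, 36884969 to 36885028, minus strand) had a signal of 8.06 in anti-IL-10 sDCs, 8.09 in sDCs, 7.26 in maDCs and 4.22 in imDCs. The sDC and maDC arrays were thus far above imDCs, and the sDC arrays stood somewhat above maDCs. The log2 difference was 3.88 (14.7-fold) in sDCs minus imDCs, which ranked 419 from the highest of 15044 genes, and 3.05 (8.27-fold) in maDCs minus imDCs, which ranked 414 of 14119. In sDCs minus maDCs it was 0.83, or 1.78-fold, and in anti-IL-10 sDCs minus sDCs it was -0.03. The error of a difference between single spots, from the scanner software, was 0.20 for Cd14 and does not cover culture, RNA or labelling.

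The genes whose pattern over the 4 arrays lay nearest to that of Cd14, among 12954 genes well above background on all of them, were Gipc2 (Euclidean distance of centred log2 signals 0.10), Sdc4 (0.11) and Lyzl4 (0.21). Sdc4 encodes the cell surface proteoglycan syndecan-4, and its signal was 2.97 in anti-IL-10 sDCs, 3.16 in sDCs, 2.26 in maDCs and -0.76 in imDCs. Only 20 genes lay within a distance of 0.5 of Cd14. With 4 arrays such closeness describes these arrays alone.

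Tlr4, the signalling receptor for LPS, varied far less than its co-receptor. Its signal, from 10 spots per array (9 usable on the imDC array), was 2.14 ± 0.06 in anti-IL-10 sDCs, 2.16 ± 0.05 in sDCs, 1.61 ± 0.06 in maDCs and 1.48 ± 0.06 in imDCs (SD between spots). The differences were 0.68 (1.60-fold) in sDCs minus imDCs, 0.55 in sDCs minus maDCs and 0.13 in maDCs minus imDCs. Each exceeded the spot error (the standard error over spots) of 0.02 to 0.03, but none reached 2-fold. The last lay under the scanner software's error of 0.14 on each array, and turned to -0.25 when arrays were scaled to their medians. A second probe named Tlr4 was not well above background on any of the 4 arrays. It lies at mm9 chromosome 4, 66590556 to 66590615, 86773 bases from the first (66503724 to 66503782), while the gene spans 19031 bases in the assembly GRCm38.p6. The nearest patterns to Tlr4 were those of Braf (distance 0.03), Rcor3 (0.04) and Ric8b (0.04), in a crowd of 2363 genes within 0.5.

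The partners of Tlr4 in LPS binding differed more than Tlr4 itself. Ly96, which encodes the LPS-binding subunit MD-2, had a signal of 2.91 in anti-IL-10 sDCs, 3.03 in sDCs, 2.55 in maDCs and 0.47 in imDCs, so its differences were 2.55 in sDCs minus imDCs and 2.07 in maDCs minus imDCs. Relative to Tlr4 on the same arrays, which does not depend on the scaling, Cd14 was 3.20 higher in sDCs than in imDCs (9.17-fold) and 2.92 higher in maDCs than in imDCs (7.55-fold). Relative to Tlr4, Ly96 was 1.87 higher in sDCs than in imDCs and 1.94 higher in maDCs than in imDCs. Between sDCs and maDCs the shifts against Tlr4 were small, at 0.28 for Cd14 and -0.07 for Ly96. Lbp, the serum protein that delivers LPS to Cd14, ran the opposite way in the comparisons with imDCs. Its signal was -3.73 in anti-IL-10 sDCs, -4.14 in sDCs and -1.21 in imDCs. In maDCs it was not well above background, at least 18.9-fold lower than in imDCs. Between sDCs and maDCs it ran the same way as Cd14 and Ly96, at least 2.47-fold higher in sDCs.

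Tlr2 pairs with Tlr1 to bind triacylated lipoproteins and with Tlr6 to bind diacylated ones, and Tlr1 and Tlr6 are neighbours whose probes lie 28190 bases apart on chromosome 5. The probes of the 3 genes, and of Tlr8, are shown because the receptors are related. Capitals mark the run of 7 bases that the Tlr1 and Tlr2 probes have in common, and the sequences are those of the array files, with mm9 positions chr5:65316115-65316174 (Tlr1), chr3:83640344-83640403 (Tlr2), chr5:65344365-65344424 (Tlr6) and chrX:163680715-163680774 (Tlr8), all on the minus strand.
Tlr1: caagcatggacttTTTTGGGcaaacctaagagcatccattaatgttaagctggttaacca
Tlr2: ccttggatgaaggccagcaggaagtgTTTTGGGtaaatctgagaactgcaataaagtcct
Tlr6: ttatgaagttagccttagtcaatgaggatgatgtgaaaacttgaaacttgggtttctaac
Tlr8: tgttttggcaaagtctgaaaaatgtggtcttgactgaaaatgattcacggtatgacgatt
Over the 45 pairs of probes that represent the 10 genes, the longest shared run was 8 bases and the best ungapped match was 29 of 60 bases, between Tlr1 and Tlr2. Probes were compared only with each other. Whether a probe also binds the transcript of another receptor was not tested.

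Tlr2 was the one gene with a lower signal in both sDC cultures than in maDCs and imDCs. Its 10 spots per array gave 3.79 ± 0.05 in anti-IL-10 sDCs, 3.74 ± 0.04 in sDCs, 4.15 ± 0.03 in maDCs and 4.23 ± 0.05 in imDCs (SD between spots). The differences were -0.49 in sDCs minus imDCs (1.40-fold lower), -0.42 in sDCs minus maDCs and -0.07 in maDCs minus imDCs. All were larger than the spot error (the standard error over spots) of 0.02 and under 2-fold. The last was smaller than the scanner software's error of 0.14 on each array. Its pattern was a common one: 2324 genes lay within a distance of 0.5, the nearest being Trmt6 (0.01), Zfp68 (0.02) and Asxl2 (0.03).

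Both partners of Tlr2 differed the other way. Tlr1 had a signal of 0.49 in anti-IL-10 sDCs, 0.51 in sDCs, 0.02 in maDCs and -1.15 in imDCs, with differences of 1.66 (3.15-fold) in sDCs minus imDCs and 1.17 (2.25-fold) in maDCs minus imDCs. Tlr6 had 1.09 in anti-IL-10 sDCs, 1.11 in sDCs, 0.71 in maDCs and 0.00 in imDCs, with differences of 1.12 (2.17-fold) and 0.71 (1.63-fold) in the same 2 comparisons. The order of the arrays was thus the same in both genes, and opposite to that of Tlr2. Relative to Tlr2 on the same arrays, Tlr1 was 4.42-fold and Tlr6 3.04-fold higher in sDCs than in imDCs. Between the neighbours the shift was smaller: Tlr1 relative to Tlr6 was 0.54 higher in sDCs than in imDCs and 0.08 higher in sDCs than in maDCs. Scaled to the array medians, Tlr1 fell under 2-fold in maDCs minus imDCs (0.79), as did Tlr6 in sDCs minus imDCs (0.73).

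Tlr5, the flagellin receptor, had an intensity of 76.2 units or less on every array. Its probe (mm9 chromosome 1, 184906201 to 184906260, plus strand) had a signal of -4.13 in anti-IL-10 sDCs, -4.14 in sDCs and -5.12 in imDCs, and at -5.39 was not well above background in maDCs. As bounds, it was at least 2.37-fold higher in sDCs than in maDCs and at least 1.21-fold lower in maDCs than in imDCs. The bound of 1.21-fold (-0.27) is smaller than its spot error of 0.36, and with normexp the sDC minus maDC difference was 0.54, under both 2-fold and the bound of 2.37-fold. In sDCs minus imDCs the difference was 0.98, 1.97-fold, just under the size counted.

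**Figure D2:**
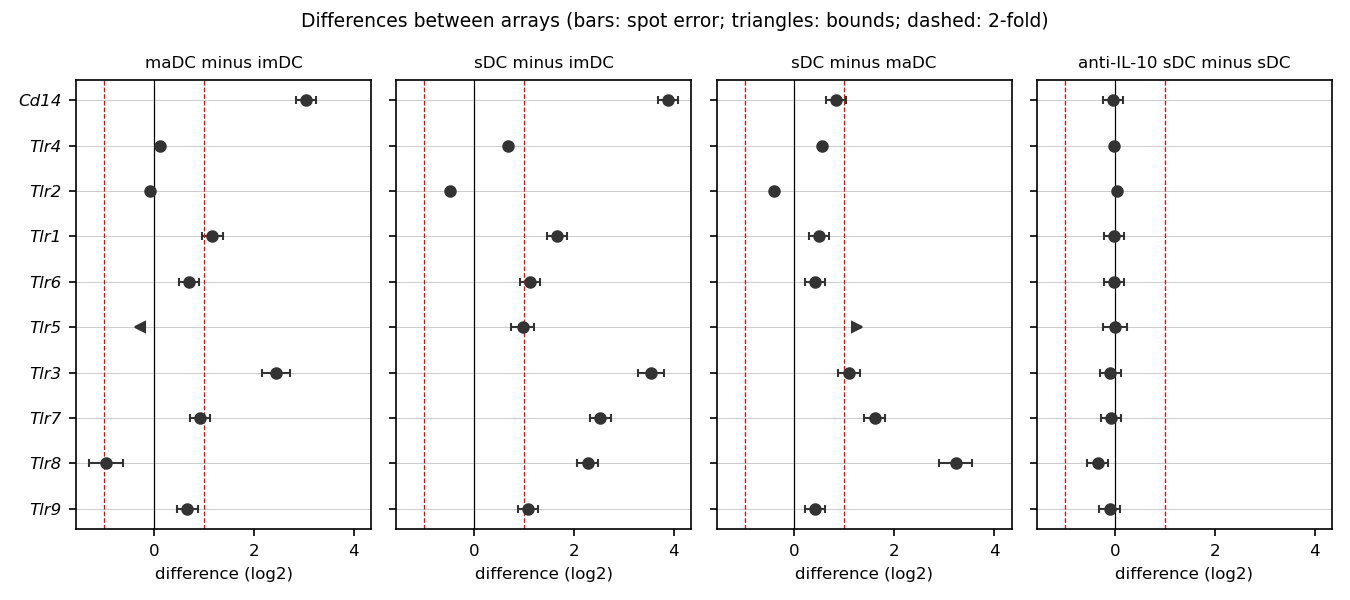
Log2 differences of the 10 genes in the 4 comparisons, with the 2-fold lines dashed. Bars are the spot error, which is the standard error over spots for Tlr2 and Tlr4 and the scanner software's error for the 8 genes with 1 spot. The bars of these 2 kinds are not alike in what they measure. Triangles are bounds, and in anti-IL-10 sDCs minus sDCs every gene lies between -0.34 and 0.05.

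Among the endosomal receptors, all 4 were at least 2-fold higher in sDCs than in imDCs. Tlr3, which binds double-stranded RNA, had the largest difference of the 9 receptors in that comparison on the processed signal, whereas with normexp that of Tlr7 (2.37) was larger than that of Tlr3 (2.14). Its brighter probe (mm9 chromosome 8, 46482009 to 46482068, minus strand) had a signal of -2.84 in anti-IL-10 sDCs, -2.74 in sDCs, -3.84 in maDCs and -6.29 in imDCs, where the intensity was only 25.6 units. The differences were 3.54 (11.6-fold) in sDCs minus imDCs, 2.45 (5.46-fold) in maDCs minus imDCs and 1.09 (2.13-fold) in sDCs minus maDCs, with spot errors of 0.26, 0.27 and 0.23. A second probe of Tlr3 (46481729 to 46481788) had -4.31 in anti-IL-10 sDCs and -3.85 in sDCs and was not well above background in maDCs or imDCs, which made it at least 10.8-fold higher in sDCs than in imDCs and at least 3.02-fold higher than in maDCs. The sDC arrays were thus the highest on both probes. With another background correction (normexp), the differences of the brighter probe were smaller: 2.14 in sDCs minus imDCs, 1.49 in maDCs minus imDCs and 0.64, under 2-fold, in sDCs minus maDCs.

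Tlr7 and Tlr8, neighbours on the X chromosome whose probes lie 62414 bases apart, differed in what the maDC array showed. Tlr7, a receptor for single-stranded RNA (probe 163743189 to 163743248, minus strand), had a signal of 2.44 in anti-IL-10 sDCs, 2.52 in sDCs, 0.91 in maDCs and -0.01 in imDCs. Tlr8, its close relative, which in human cells also senses single-stranded RNA, had -2.22 in anti-IL-10 sDCs, -1.88 in sDCs, -5.11 in maDCs and -4.16 in imDCs. Tlr7 thus lay lowest on the imDC array and Tlr8 on the maDC array, while both lay highest on the 2 sDC arrays. In sDCs minus imDCs the differences were alike, 2.53 (5.77-fold) for Tlr7 and 2.27 (4.83-fold) for Tlr8. In maDCs minus imDCs they were 0.92 for Tlr7 and -0.95 for Tlr8, so that Tlr8 relative to Tlr7 was 3.67-fold lower in maDCs. After quantile normalization, median scaling and in the authors' deposited values, Tlr8 passed 2-fold in that direction (-1.32, -1.34 and -1.30), but with normexp it was at -0.24 and Tlr7 at 0.84, a much smaller gap between them. In sDCs minus maDCs, Tlr7 was 3.04-fold higher (1.61) and Tlr8 9.35-fold higher (3.23), which ranked 236 from the highest of 14611 genes. With normexp these were 1.53 for Tlr7 and 2.03 for Tlr8. The spot error of the Tlr8 difference was 0.33, larger than the 0.20 of Tlr7, and its maDC intensity was 43.3 units.

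Tlr9, the receptor for unmethylated CpG DNA (mm9 chromosome 9, 106128979 to 106129038, plus strand), had a signal of 1.20 in anti-IL-10 sDCs, 1.30 in sDCs, 0.89 in maDCs and 0.22 in imDCs. It was 1.08 higher in sDCs than in imDCs (2.12-fold) and 0.67 higher in maDCs than in imDCs. The order of the arrays was that of Tlr1 and Tlr6, with a narrower span. Scaled to the array medians its sDC minus imDC difference was 0.70, under 2-fold.

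Sequence before the annotated start was available for 7 of the 10 genes, in 9 promoter entries, from RefSeq (GRCm38.p6). The 250 bases before the start are shown for Tlr3 and Tlr8, which had the largest receptor differences of sDCs against imDCs and maDCs on the processed signal, and for Tlr2, which ran the other way. All 3 lie on the minus strand, at chr8:45410381-45410630, chrX:167264330-167264579 and chr3:83841609-83841858, and capitals mark matches to the 5 motifs given after them.
Tlr3: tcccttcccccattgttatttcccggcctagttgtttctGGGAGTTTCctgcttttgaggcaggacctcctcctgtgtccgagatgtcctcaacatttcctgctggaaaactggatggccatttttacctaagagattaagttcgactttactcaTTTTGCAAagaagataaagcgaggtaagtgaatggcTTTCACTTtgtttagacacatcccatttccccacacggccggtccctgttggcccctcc
Tlr8: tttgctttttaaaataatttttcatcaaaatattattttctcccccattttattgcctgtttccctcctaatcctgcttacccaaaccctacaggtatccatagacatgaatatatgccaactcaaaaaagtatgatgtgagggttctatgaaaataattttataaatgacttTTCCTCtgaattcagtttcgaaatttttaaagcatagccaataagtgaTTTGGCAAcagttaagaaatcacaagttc
Tlr2: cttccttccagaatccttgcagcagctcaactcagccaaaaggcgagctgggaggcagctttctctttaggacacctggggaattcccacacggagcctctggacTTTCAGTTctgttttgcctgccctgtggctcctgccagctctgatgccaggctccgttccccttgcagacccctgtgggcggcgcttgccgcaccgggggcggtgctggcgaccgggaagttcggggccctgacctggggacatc
The motifs, searched on both strands, were GAGGAA (the core bound by ETS factors such as PU.1), AANTGAAA (part of an interferon response element), GGGNNTTTC (part of an NF-kB site), TGANTCA (AP-1) and TTGCNNAA (C/EBP). In 32851 promoters of the same length these letters occurred in 23.3%, 5.70%, 3.72%, 6.75% and 9.56%.

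In Tlr3 the interferon response letters began 59 bases before the start, the NF-kB letters 211 bases before it and the C/EBP letters 95 bases before it. In Tlr8 the ETS letters began 77 bases and the C/EBP letters 29 bases before the start. Of the 5 patterns searched, Tlr2 held only the interferon response letters, at 145 bases. Tlr9 held the ETS letters at 112 and the AP-1 letters at 58 bases, 1 of 2 entries of Tlr1 held the ETS letters at 23 bases, and 1 of 2 entries of Tlr6 held the interferon response letters at 110 and the C/EBP letters at 89 bases. The Tlr5 entry held none of the 5. Other forms of these sites were not searched, so a promoter without the letters may still hold a site, such as the unmarked gggaattccc in Tlr2 for NF-kB. No factor's binding was measured in these cultures, and the matches describe letters only.

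**Figure D3:**
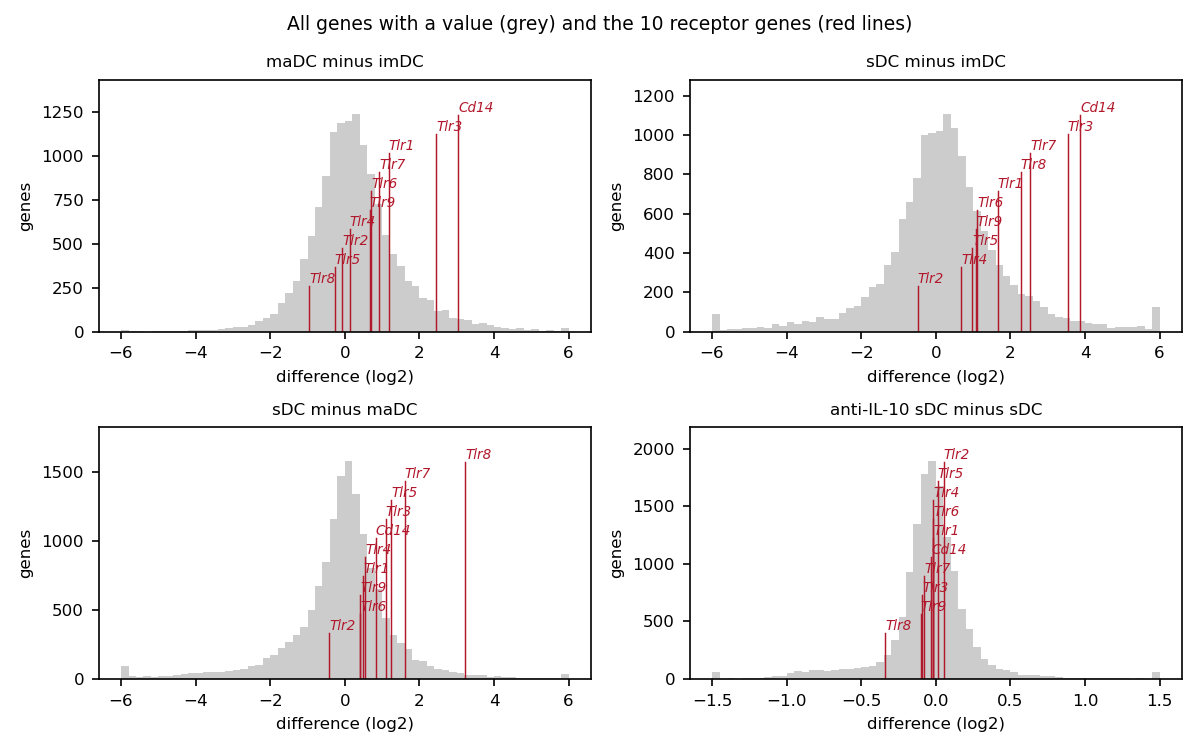
Number of genes by log2 difference in the 4 comparisons (grey, values beyond the axis gathered in the end bins), with the 10 receptor genes as red lines of staggered height for legibility. In sDCs minus imDCs 9 of 10 lines lie above 0. The median of all genes there was also above 0, at 0.21, and the share of all genes above 0 was not computed. In anti-IL-10 sDCs minus sDCs Tlr8, at -0.34, lies in the lower tail of a narrow distribution, with 9.43% of genes below it.

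None of the 10 genes differed by 2-fold between the sDC cultures with and without the antibody against IL-10. In anti-IL-10 sDCs minus sDCs the differences ran from -0.34 in Tlr8 (1.26-fold lower) to 0.05 in Tlr2, and 8 of 10 were smaller than their own spot error on the probe that represents the gene. The exceptions were Tlr8, with a spot error of 0.21, and Tlr2, with 0.02. For Tlr2 this is the standard error over spots, and its difference was smaller than the scanner software's error of 0.14 on each array. The dimmer second probe of Tlr3 was at -0.46, beyond its spot error of 0.24, while the brighter one was at -0.09. Of the rest, Tlr9 was at -0.10, Tlr7 at -0.08, Cd14 at -0.03 and Tlr4 at -0.02. Without replicate cultures the spread between cultures is unknown, so an effect of the antibody of any size could not be told from it. Stromal markers had a lower summed signal and neutrophil markers a higher one in anti-IL-10 sDCs, as given above, and their part was not tested.

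The wider pathway was described through gene lists, whose counts stand beside the shares over all genes. These shares were 25.3% higher and 16.1% lower in sDCs against imDCs, and 21.5% and 10.8% in maDCs against imDCs. In sDCs against maDCs they were 14.2% higher and 16.8% lower. Of 14 accessory and chaperone genes with a probe, 7 passed 2-fold upwards and 1 (Lbp) downwards in sDCs against imDCs. In maDCs against imDCs the counts were 3 up and 1 (Lbp) down, and in sDCs against maDCs 5 up and 0 down. The median difference of the list was 0.69, 0.29 and 0.38 in these 3 comparisons. No probe named Tlr11, Tlr12 or Tlr13, the remaining mouse receptors. Cd180, a TLR-like surface protein, had a signal of 1.88 in anti-IL-10 sDCs, 2.01 in sDCs, 0.05 in maDCs and -0.94 in imDCs. Ly86 (MD-1), which binds Cd180, had 2.80 in anti-IL-10 sDCs, 3.35 in sDCs, -0.07 in maDCs and -1.06 in imDCs. Both were highest on the sDC arrays, with differences in sDCs minus imDCs of 2.94 for Cd180 and 4.41 for Ly86. Unc93b1, which carries the endosomal receptors out of the endoplasmic reticulum, was 1.25 higher in sDCs than in imDCs and 0.97 higher in maDCs than in imDCs. The endolysosomal transporter gene Slc15a3 differed most in maDCs (2.70 over imDCs, against 1.98 in sDCs over imDCs), and the chaperone gene Cnpy3 was 1.07 higher in maDCs than in imDCs.

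Endosomal receptors are cut by proteases before they signal, and all 5 listed protease genes were at least 2-fold higher in sDCs than in imDCs and in maDCs than in imDCs. Lgmn, the asparagine endopeptidase, had a signal of 4.31 in anti-IL-10 sDCs, 4.47 in sDCs, 2.55 in maDCs and 1.16 in imDCs. Ctsl (cathepsin L) had 8.50 in anti-IL-10 sDCs, 8.54 in sDCs, 7.64 in maDCs and 5.32 in imDCs. Their order over the arrays was that of the endosomal receptors other than Tlr8. In sDCs minus maDCs, 2 of 5 passed 2-fold, Lgmn (1.92) and Ctsk (1.25).

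**Figure D4:**
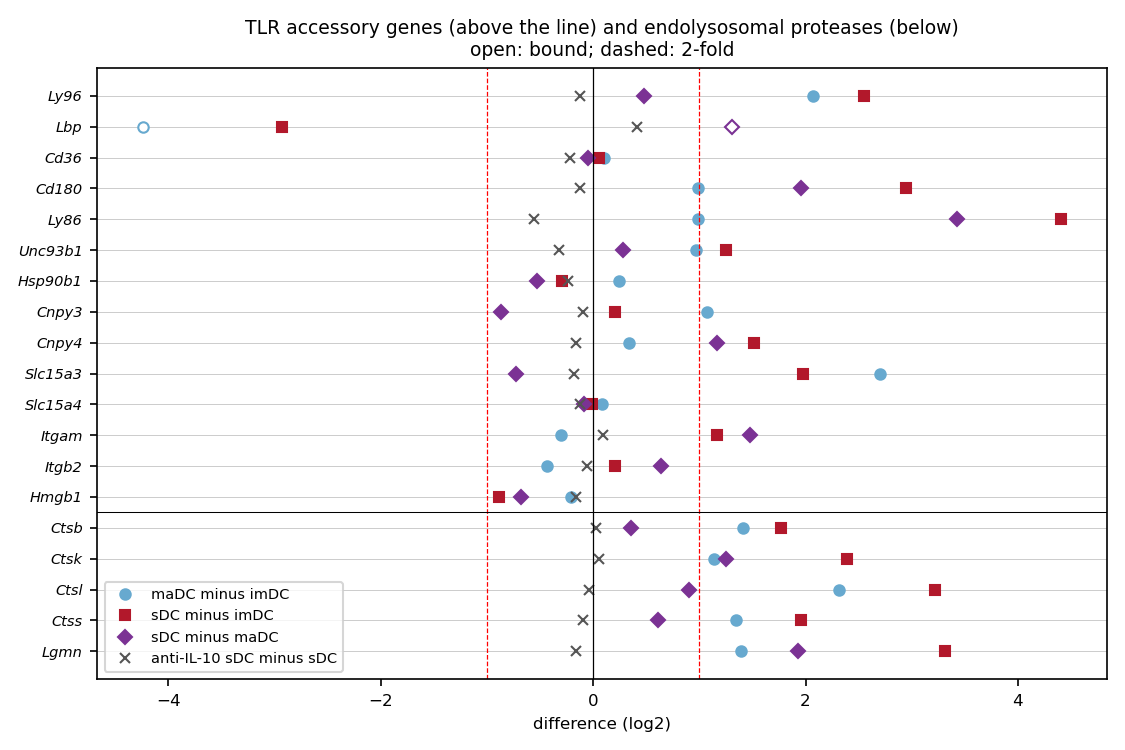
Log2 differences of 14 TLR accessory genes (above the line) and 5 endolysosomal protease genes (below) in the 4 comparisons, with bounds as open symbols and 2-fold lines dashed. All 5 proteases lie above 2-fold in both comparisons with imDCs, and Ly86 and Cd180 stand furthest to the right in sDCs minus maDCs.

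Few adaptors and proximal signalling genes differed by 2-fold. Of 25 with a value, 1 passed upwards (Peli3, 2.14) and 2 downwards (Myd88 and Map3k7) in sDCs against imDCs, 1 upwards (Peli1, 1.03) and 3 downwards (Tirap, Btk and Irak4) in maDCs against imDCs, and 1 upwards (Peli3, 1.15) and 1 downwards (Traf6, -1.19) in sDCs against maDCs. Peli1 and Peli3 encode ubiquitin ligases, Map3k7 the kinase TAK1, and Traf6 the ubiquitin ligase downstream of Myd88. Myd88, the adaptor of all these receptors except Tlr3, had 3.02 in anti-IL-10 sDCs, 2.95 in sDCs, 3.04 in maDCs and 3.96 in imDCs, lower by 1.02 in sDCs than in imDCs. Tirap, which links Myd88 to Tlr2 and Tlr4, was at -1.53 in maDCs minus imDCs, and Irak4, a kinase bound to Myd88, at -1.06. The median of the list was -0.30 in sDCs minus imDCs and -0.23 in maDCs minus imDCs. These counts depend on the scaling. With scaling to the array medians, Traf6, at -0.97 in sDCs minus imDCs, would pass 2-fold downwards. Peli1 would fall under 2-fold in maDCs minus imDCs.

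Among transcription factors and negative regulators of the pathway, maDCs held more of the higher values. Of 11 factors, 7 passed 2-fold upwards and 1 (Creb1, -1.13) downwards in maDCs against imDCs, 3 upwards (Jun, Irf8 and Fos) and 2 downwards (Rel and Nfkb1) in sDCs against imDCs, and 2 upwards (Jun and Creb1) and 4 downwards (Rel, Nfkb1, Irf7 and Atf3) in sDCs against maDCs. Rel, the NF-kB subunit c-Rel, had -5.34 in anti-IL-10 sDCs, -5.27 in sDCs, -0.62 in maDCs and -3.26 in imDCs, and Nfkb1 was at -2.42 in sDCs minus maDCs. On the sDC arrays Rel lay near the lowest signal well above background, -5.77 in anti-IL-10 sDCs and -6.04 in sDCs. The size of its differences there is therefore uncertain. Of 15 negative regulators, 7 passed upwards and 0 downwards in maDCs against imDCs, 3 upwards (Dusp1, Zc3h12a and Tnip3) and 3 downwards (Socs1, Sigirr and Il1rl1) in sDCs against imDCs, and 0 upwards and 5 downwards (Il1rl1, Socs1, Sigirr, Zc3h12a and Tnfaip3) in sDCs against maDCs. Socs1, a suppressor of cytokine signalling, had 0.18 in anti-IL-10 sDCs, 0.06 in sDCs, 4.35 in maDCs and 3.73 in imDCs. Tnfaip3 (A20), an inhibitor of NF-kB activation, was 2.26 higher in maDCs than in imDCs. In sDCs against imDCs the counts of factors and of negative regulators lay near the shares of all genes, 25.3% higher and 16.1% lower. In all 5 lists, 0 genes differed by 2-fold between anti-IL-10 sDCs and sDCs. Over all genes 0.857% were higher and 1.25% lower there, so counts of 0 lie near those shares.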

How the data were processed

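Total RNA (0.5 µg per the labels' protocols) of 4 cultures, 1 array each, was labelled with Cy3 and hybridised to a one-colour Agilent array. The authors deposited scanner tables with a background-subtracted intensity per spot, made with Feature Extraction 10.5.1.1 per the file headers (9.1 per the submitters' processing notes), with probe positions in mm9. They also deposited log2 values whose columns share a median of 6.30 and track log2 intensity (correlation across probes 0.997 to 1.00), with the normalization method not given in the sources used here.

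From the scanner tables, control spots and spots marked as outliers (76 to 148 per array) were left out of 43379 non-control spots, log2 processed intensity minus the array's 75th percentile was averaged over the spots of a probe, and a gene was represented by its probe with the highest mean signal. The scanner software marked 61.2% to 69.7% of spots as well above background, and a probe needed that mark on 50% or more of its spots. Where this failed on 1 of 2 arrays, a bound was taken against the higher of the probe's own signal and the lowest signal well above background, written as "at least". No spot was saturated (0 on each array). Probes were named through accessions (25205), symbols (6207) and synonyms (1598) of the RefSeq table of GRCm38.p6, and 8044 had no match.

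With 1 array per group no spread between cultures could be estimated, and the number of arrays limits the precision. The receptor genes and the gene lists were chosen with earlier results of these data known. Every receptor gene is described with all its probes. Of each pathway list, up to 4 genes with the largest differences per comparison were eligible to be named, with 3 nearest patterns each for Cd14, Tlr2 and Tlr4. Unc93b1, Thy1, Mmp8, Creb1 and Tnip3 were named after their values were seen. The calculation was tested on simulated data. Alternatives were quantile normalization, median scaling, normexp (limma 3.58.1, offset 50), the authors' values, the mean over probes, other filters on dim probes, and other fold thresholds. Python 3.11.15 and R 4.3.3 were used.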

Additional observations from a re-analysis of the deposited data

How the results depend on the processing

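Over 277 alternatives of the 40 receptor gene values, 262 kept their direction and their side of 2-fold, 5 fell under 2-fold, 3 passed it and 7 changed sign while under 2-fold, and 0 values past 2-fold turned round. The count of receptor genes at least 2-fold lower in maDCs than in imDCs was 1 (Tlr8) after quantile normalization, median scaling and in the authors' values, as at 1.5-fold, where 6 were higher. In sDCs minus imDCs 4 passed 4-fold, and in sDCs minus maDCs 1 did. With normexp, 2 were at least 2-fold higher in sDCs than in maDCs, since Tlr3 (0.64) and Tlr5 (0.54) missed it, and the differences of the low-intensity genes Tlr3 and Tlr8 shrank by over 1.5 times in several comparisons, such as Tlr8 in maDCs minus imDCs (-0.24) and in sDCs minus maDCs (2.03). Averaging the dim second probe into Tlr4 gave -0.19 in sDCs minus imDCs and -0.52 in sDCs minus maDCs. Median scaling moved the median of all genes to -0.20 in maDCs minus imDCs and -0.18 in sDCs minus imDCs (main 0.18 and 0.21), and quantile normalization to 0.02 and 0.03. The share of higher calls among 2-fold calls was 66.6% in maDCs minus imDCs, 43.3% under median scaling, 57.7% after quantile normalization and 56.3% in the authors' values, and 61.1% against 42.9% under median scaling in sDCs minus imDCs. Over all genes, counts moved by over 1.5 times as follows, with cause not tested unless the threshold or filter itself sets it. In maDCs minus imDCs, 2704 were lower with median scaling and 6204 higher with no filter on dim probes, 4727 were higher and 2832 lower at 1.5-fold, and 1125 and 342 at 4-fold. In sDCs minus imDCs, 6136 were higher with no filter, 3719 lower at 1.5-fold, and 1639 higher and 1036 lower at 4-fold. In sDCs minus maDCs, 3594 were higher and 3676 lower at 1.5-fold, and 696 and 1084 at 4-fold. In anti-IL-10 sDCs minus sDCs, 44 were higher and 43 lower with normexp, 302 lower with the mean over probes, 309 higher and 590 lower with no filter, 60 and 113 with both arrays well above background, 299 and 773 at 1.5-fold, and 25 and 29 at 4-fold. Signals near background limit Tlr3 in imDCs, Tlr5 on all arrays and Tlr8 in maDCs. No paired analysis was possible because each group has 1 array.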
